A study of Mus musculus with 15 samples.

Results

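Mt1, Mt2, Slc39a14 and Slc30a1 are 4 genes that bind or carry zinc, out of 37681 rows in the gene count table. They were taken by symbol, and they were picked because earlier results on these same libraries had placed Mt1 and Mt2 among the genes that set the library celecoxib 1 apart. Their values are therefore given as a description, with no test, and their differences from vehicle are given with and without celecoxib 1. The libraries hold polyadenylated RNA of the thoracic aorta from adult male wild-type C57BL/6 mice aged 10 to 12 weeks. Each mouse received 100 µL by gavage of celecoxib at 30 mg/kg, rofecoxib at 10 mg/kg or the PEG-400 vehicle alone, and was killed 6 h later at Zeitgeber hour 11. Both drugs are selective inhibitors of cyclooxygenase-2, and each of the 3 groups held 5 libraries, which the design text calls biological replicates. The vehicle mice were gavaged in the same way as the treated mice, and no group was left without gavage.

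Metallothioneins are small proteins rich in cysteine whose thiol groups bind zinc and copper, and their transcription is raised through the zinc sensor Mtf1 when free zinc rises in a cell. Glucocorticoids and the interleukin-6 pathway are also known inducers of metallothionein genes. Zinc enters the cytosol through Slc39a transporters such as Slc39a14 (ZIP14), a known acute phase gene that also carries iron and manganese, and leaves it through Slc30a transporters such as Slc30a1 (ZnT1), the exporter at the cell surface, itself a known target of Mtf1.

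On the mm9 build that the deposited table uses, Mt2 (ENSMUSG00000031762, chr8:96696316-96697669) and Mt1 (ENSMUSG00000031765, chr8:96702787-96704427) lie next to each other with 5117 bases between them. Slc39a14 (ENSMUSG00000022094) lies at chr14:70703072-70751434 and Slc30a1 (ENSMUSG00000037434) at chr1:193730444-193737328. The 1700034H15Rik row overlaps one end of Slc30a1 and held 7 to 44 counts per library, against 618 to 1138 for Slc30a1 itself. In the GENCODE M21 annotation the principal transcripts have 3 exons and 549 bases for Mt1, 3 exons and 511 bases for Mt2, 10 exons and 4926 bases for Slc39a14, and 2 exons and 5244 bases for Slc30a1.

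The coding sequences of the metallothionein pair are shown because their likeness bears on whether reads of one could be counted for the other, and because the cysteine codons, in capitals, encode the metal-binding residues. They were read 5′ to 3′ from GENCODE M21 transcripts, without the stop codon.
Mt1: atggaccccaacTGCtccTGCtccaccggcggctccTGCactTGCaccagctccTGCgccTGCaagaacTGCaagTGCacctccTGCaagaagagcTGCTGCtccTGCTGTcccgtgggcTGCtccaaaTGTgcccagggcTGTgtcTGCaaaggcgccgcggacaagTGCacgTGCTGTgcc
Mt2: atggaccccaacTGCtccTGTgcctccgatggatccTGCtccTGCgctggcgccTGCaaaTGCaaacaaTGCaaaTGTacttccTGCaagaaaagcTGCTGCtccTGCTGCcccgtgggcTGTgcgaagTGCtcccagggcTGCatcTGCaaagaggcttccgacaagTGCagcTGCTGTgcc
Each has 183 bases and 61 codons, 20 of which (32.8%) encode cysteine, and all 20 cysteine codons stand at the same positions. The sequences share 145 of 183 bases (79.2%), and the longest run identical in both transcripts is 20 bases. How reads that fit more than one gene were counted is not given in the sources used here.

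The bases before the transcription start are shown because Mtf1 binds metal response elements there, and because the amounts of Mt1 and Mt2 moved together across libraries. The promoter table from RefSeq (GRCm38.p6) had entries for 3 of the 4 genes: Mt1, Mt2 and Slc30a1. The 250 bases before the start are printed 5′ to 3′ on the plus strand, at chr8:94178839-94179088 for Mt1, chr8:94172368-94172617 for Mt2 and chr1:191906531-191906780 for Slc30a1. Capitals mark the core of the metal response element, searched as TGCACNC or TGCGCNC on both strands.
Mt1: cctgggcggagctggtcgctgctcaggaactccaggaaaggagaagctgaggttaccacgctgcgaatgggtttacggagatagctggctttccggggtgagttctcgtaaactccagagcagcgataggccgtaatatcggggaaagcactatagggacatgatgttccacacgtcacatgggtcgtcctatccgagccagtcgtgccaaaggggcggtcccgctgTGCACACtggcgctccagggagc
Mt2: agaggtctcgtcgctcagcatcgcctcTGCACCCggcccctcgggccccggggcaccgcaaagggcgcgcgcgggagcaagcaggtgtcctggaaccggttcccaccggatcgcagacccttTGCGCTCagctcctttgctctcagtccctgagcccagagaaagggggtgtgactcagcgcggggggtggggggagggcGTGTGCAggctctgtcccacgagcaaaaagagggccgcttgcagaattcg
Slc30a1: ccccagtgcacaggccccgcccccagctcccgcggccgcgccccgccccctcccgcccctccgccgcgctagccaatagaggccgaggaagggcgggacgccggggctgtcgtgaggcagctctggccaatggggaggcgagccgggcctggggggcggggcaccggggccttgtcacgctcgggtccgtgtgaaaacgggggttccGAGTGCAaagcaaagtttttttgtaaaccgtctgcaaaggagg
The Mt1 stretch holds 1 core, beginning 23 bases before the start. The Mt2 stretch holds 3, at 223, 128 and 50 bases before the start, the last of them on the minus strand. Slc30a1 has 1, at 43 bases before the start, on the minus strand. Within the 50 bases after the start, Mt1 has 2 further cores at bases 3 and 21, Mt2 has 1 at base 5 and Slc30a1 has 1 at base 31. Over this window of 300 bases, 25.6% of all 27025 promoters hold at least 1 core, 2% at least 3 and 0.503% at least 4, beside 3 in Mt1, 4 in Mt2 and 2 in Slc30a1. The core ACANNNTGT of glucocorticoid receptor sites occurs 1 time in the Mt1 window and in neither of the other windows, and 6.90% of all promoters hold it. TTCNNNGAA, the core of STAT sites, occurs in none of the 3 windows and in 8.47% of all promoters. These matches describe letters in the window and show no binding.

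The library totals lay between 30937046 and 30967115 counts and so differed by 0.0971% of their mean. The labels record no step that brought the totals this close, and the original depth is unknown. Of all rows, 15134 genes passed the low-count filter, the 4 genes among them. The edgeR quasi-likelihood test with Benjamini-Hochberg adjustment called 0 genes (0%) at an adjusted p under 0.05 for celecoxib against vehicle, where the smallest adjusted p was 0.146, and 0 genes (0%) for rofecoxib, where it was 0.896. At an unadjusted p under 0.05, 5.35% of tested genes were higher and 7.18% lower with celecoxib, and 1.47% were higher and 3.71% lower with rofecoxib. DESeq2 called 126 genes for celecoxib and 0 for rofecoxib. The comparisons share the vehicle libraries. Levels are given in CPM, the standard scale of counts relative to the library total, with totals adjusted by TMM factors from 0.953 to 1.04. The 5 smooth muscle markers, which define the main cell type of the aortic wall, summed to between 35570 and 51480 CPM, and none was at 0. Celecoxib 1 stands apart from the other libraries: of 13218 genes with a mean of at least 1 CPM, 296 were over 2-fold above the median of the other 14 libraries and 589 were under 0.5 of it.

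Mt1 was the most abundant of the 4 genes per base of transcript. In the vehicle group it stood at 358 ± 250 CPM per kilobase (SD, n = 5), followed by Mt2 at 210 ± 222, Slc39a14 at 27.1 ± 3.19 and Slc30a1 at 5.50 ± 0.588 CPM per kilobase. The vehicle spreads of Mt1 and Mt2 overlap, whereas Mt2, Slc39a14 and Slc30a1 had medians of 131, 25.6 and 5.25 CPM per kilobase. In rofecoxib libraries the order was the same, at 226 ± 67.5, 87.5 ± 48.0, 26.3 ± 2.01 and 6.15 ± 0.515 CPM per kilobase (SD, n = 5).

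Mt1 ranged from 77.9 to 2270 CPM over the 15 libraries, a 29.1-fold span that was 5.48-fold without celecoxib 1. In vehicle libraries 1 to 5 it stood at 88.2, 77.9, 408, 155 and 253 CPM. With celecoxib the libraries gave 2270, 119, 427, 188 and 99.3 CPM, in the same order of replicate number. With rofecoxib they gave 105, 139, 95.7, 98.3 and 183 CPM. Celecoxib 1 is far above every other library, celecoxib 3 and vehicle 3 come next at nearly the same level, and the 3 groups overlap. The group medians were 155 CPM for vehicle, 188 for celecoxib (153 without celecoxib 1) and 105 for rofecoxib, and the distance between them is small beside the spread within the vehicle and celecoxib groups. Vehicle averaged 197 ± 137 CPM (SD, n = 5), celecoxib 621 ± 931 (n = 5) and rofecoxib 124 ± 37.1 (n = 5). Without celecoxib 1 the celecoxib mean was 208 ± 151 CPM (SD, n = 4), close to that of vehicle. The fitted log2 fold change of Mt1 was 1.66 ± 0.78 (SE) for celecoxib against vehicle, 0.09 ± 0.52 without celecoxib 1, 2.14 ± 0.85 without vehicle 3 and 0.55 ± 0.48 without both. By limma-voom, which averages log values, it was 0.86 for celecoxib and -0.43 for rofecoxib. In the edgeR fit the rofecoxib difference was -0.66 ± 0.77 with all libraries and -0.20 ± 0.80 without vehicle 3. As a fold of vehicle, the celecoxib value fell from 3.16 to 1.07 without celecoxib 1. The rofecoxib value moved less, from 0.632 to 0.873 without vehicle 3.

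Mt2 showed a similar order of libraries with a wider span, from 25.6 to 1891 CPM or 73.8-fold, and 11.8-fold without celecoxib 1. Vehicle libraries 1 to 5 held 33.4, 32.7, 304, 66.8 and 101 CPM. In celecoxib libraries the values were 1891, 40.6, 258, 71.5 and 33.4 CPM, and in rofecoxib libraries 33.0, 47.7, 31.2, 25.6 and 86.1 CPM. Celecoxib 1 again stands alone, vehicle 3 and celecoxib 3 again follow, and the ranges of the 3 groups overlap. Group means were 107 ± 113 CPM for vehicle, 459 ± 806 for celecoxib and 44.7 ± 24.5 for rofecoxib (SD, n = 5 each). The celecoxib mean without celecoxib 1 was 101 ± 106 CPM (SD, n = 4). On the log2 scale the difference from vehicle was 2.09 ± 1.04 (SE) for celecoxib and turned to -0.08 ± 0.75 without celecoxib 1. It was 3.01 ± 1.12 without vehicle 3 and 0.81 ± 0.65 without both libraries. The rofecoxib difference was -1.27 ± 1.02, and -0.37 ± 1.01 without vehicle 3. By limma-voom the values were 0.88 for celecoxib and -0.87 for rofecoxib.

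**Figure D1:**
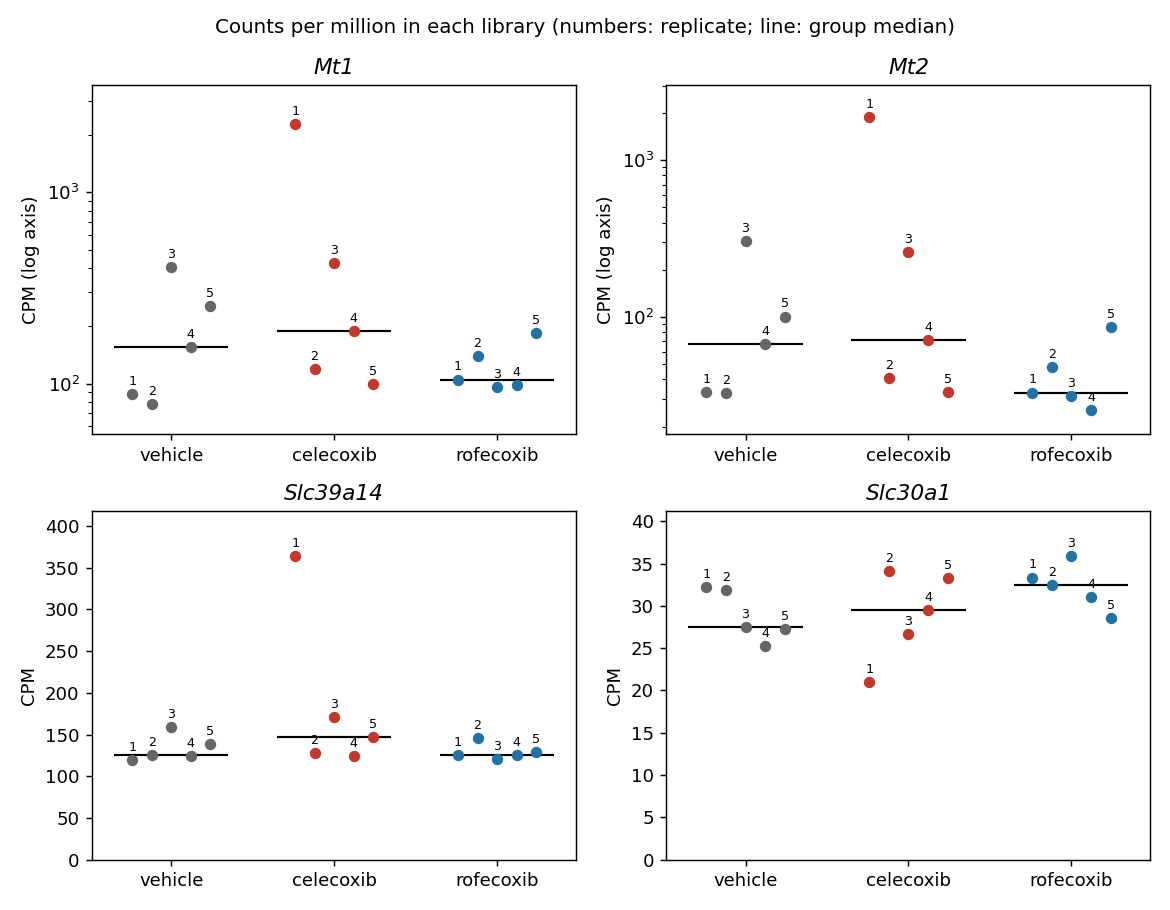
CPM of the 4 genes in each of the 15 libraries, by group (log axis for Mt1 and Mt2, linear axis from 0 for Slc39a14 and Slc30a1); points are libraries numbered by replicate and lines are group medians. Celecoxib 1 is the highest library for Mt1 (2270 CPM), Mt2 (1891 CPM) and Slc39a14 (364 CPM) and the lowest for Slc30a1 (20.95 CPM), and the 3 groups overlap in every panel.

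Slc39a14, the importer, varied little outside celecoxib 1. Vehicle libraries 1 to 5 gave 120, 126, 159, 124 and 139 CPM, and rofecoxib libraries gave 126, 146, 120, 126 and 129 CPM. Celecoxib libraries gave 364, 128, 171, 124 and 147 CPM. Celecoxib 1 is the highest library, celecoxib 3 and vehicle 3 follow, and the remaining 12 libraries lie between 120 and 147 CPM. Vehicle averaged 133 ± 15.8 CPM, rofecoxib 129 ± 9.90 and celecoxib 187 ± 101 (SD, n = 5 each), and the celecoxib mean was 142 ± 21.3 CPM (SD, n = 4) without celecoxib 1. The log2 difference between celecoxib and vehicle was 0.48 ± 0.24 (SE) with all libraries and 0.10 ± 0.10 without celecoxib 1. Without vehicle 3 it was 0.57 ± 0.27, and 0.17 ± 0.10 without both. For rofecoxib the difference was -0.04 ± 0.24, and 0.04 ± 0.26 without vehicle 3.

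Slc30a1, the exporter, spanned 1.71-fold over all libraries. Without celecoxib 1 its span was 1.42-fold, nearly the same as that of Slc39a14 (1.43-fold). The vehicle libraries held 32.3, 31.9, 27.5, 25.2 and 27.3 CPM. Celecoxib libraries held 20.95, 34.1, 26.6, 29.5 and 33.3 CPM, and rofecoxib libraries 33.4, 32.5, 35.9, 31.03 and 28.6 CPM. Here celecoxib 1 is the lowest of the 15 libraries, celecoxib 3 is 13th and vehicle 3 is 11th from the top, so the libraries highest in metallothionein sit in the lower part of the Slc30a1 range. Group means were 28.8 ± 3.08 CPM for vehicle, 28.9 ± 5.38 for celecoxib and 32.3 ± 2.70 for rofecoxib (SD, n = 5 each), and 30.9 ± 3.50 (n = 4) for celecoxib without celecoxib 1. The fitted log2 difference was 0.0041 ± 0.12 (SE) for celecoxib, 0.11 ± 0.09 without celecoxib 1, -0.0013 ± 0.13 without vehicle 3 and 0.09 ± 0.10 without both. For rofecoxib it was 0.16 ± 0.12, and likewise 0.16 ± 0.13 without vehicle 3. The median over all tested genes was 0.0051 for celecoxib, 0.018 for celecoxib without celecoxib 1 and -0.00067 for rofecoxib. Because the celecoxib and rofecoxib doses differ, the values of the drugs are set side by side and no test was made between them.

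**Figure D2:**
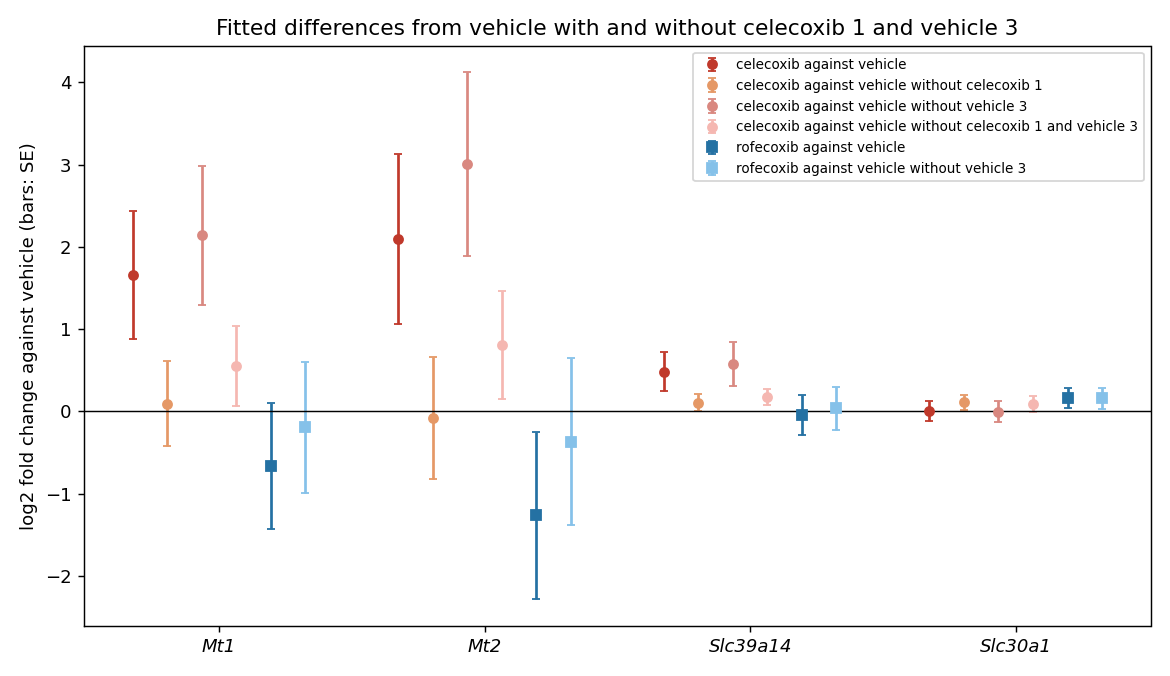
Fitted log2 fold change against vehicle of the 4 genes, with bars of 1 SE, from fits over all genes with all 15 libraries and with celecoxib 1, vehicle 3 or both left out. The celecoxib value of Mt2 is 2.09 with all libraries, -0.08 without celecoxib 1 and 3.01 without vehicle 3, while the values of Slc30a1 lie between -0.0013 and 0.16.

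Relative to the median of the other 14 libraries, celecoxib 1 held 42.9-fold more Mt2, the highest ratio of all 13218 genes with a mean of at least 1 CPM. Mt1 had a 17.6-fold ratio, behind Serpina3m (29.0-fold) and Vwce (27.4-fold) and ahead of Fkbp5 (13.3-fold), a glucocorticoid-induced chaperone partner. Slc39a14 ranked 121st at 2.87-fold, and Slc30a1 stood at 0.666 of the median. These ratios include the values by which the genes were picked. The spread within groups was wide for the metallothioneins without celecoxib 1 as well. The SD of log2 CPM within groups was 1.23 for Mt1 and 1.64 for Mt2, and 0.82 and 1.14 without celecoxib 1, against 0.18 and 0.16 for the median gene. Only 4.06% of genes had a higher SD than Mt1 and 2.22% a higher SD than Mt2 once celecoxib 1 was left out. Slc39a14 and Slc30a1 were ordinary by that measure, at 0.16 and 0.15 without celecoxib 1, with 49.1% and 53.3% of genes more variable.

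Mt1 and Mt2 did not change in equal proportion. Mt1 had more counts than Mt2 in each of the 15 libraries, and the ratio of Mt2 to Mt1 counts ran from 0.261 in rofecoxib 4 to 0.833 in celecoxib 1. The 3 libraries with the most metallothionein had the 3 highest ratios, at 0.833 in celecoxib 1 (4161 CPM of Mt1 and Mt2 together), 0.744 in vehicle 3 (712 CPM) and 0.605 in celecoxib 3 (685 CPM). Next came rofecoxib 5 with a ratio of 0.471 at 269 CPM. Vehicle 5 held more metallothionein, 354 CPM, with a ratio of 0.398. The other 10 libraries, between 111 and 259 CPM, had ratios from 0.261 to 0.430. The pair took 0.397% of all counts in celecoxib 1 and between 0.0109% and 0.0739% in the others.

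**Figure D3:**
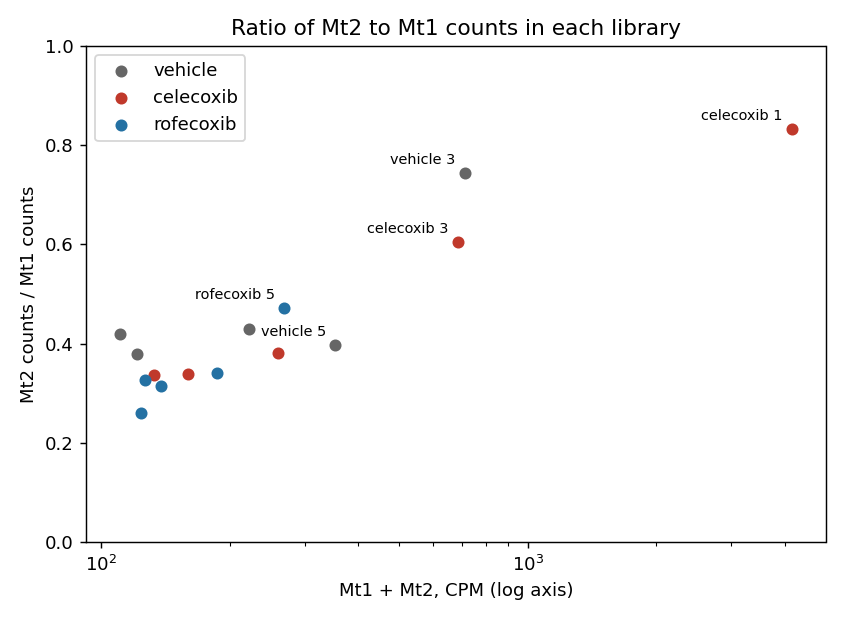
Ratio of Mt2 to Mt1 counts (vertical axis) against the summed CPM of Mt1 and Mt2 (log axis) in each library, coloured by group. Celecoxib 1, vehicle 3 and celecoxib 3 have ratios of 0.833, 0.744 and 0.605, above the other 12 libraries, which end at 0.471.

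Across libraries the 2 metallothioneins went together, and this held without celecoxib 1. Pearson's r of log2 CPM between Mt1 and Mt2 was 0.990 (Spearman's rho 0.932) over 15 libraries, 0.978 (0.916) over 14 without celecoxib 1 and 0.969 (0.901) over 13 without celecoxib 1 and celecoxib 3. Mt1 and Slc39a14 gave r = 0.909 (rho 0.650) over 15 libraries, falling to 0.741 (0.569) without celecoxib 1 and 0.604 (0.462) without celecoxib 1 and celecoxib 3. Mt1 and Slc30a1 ran in opposite directions, with r = -0.877 (rho -0.732), -0.750 (-0.670) and -0.705 (-0.615) over the same 3 sets of libraries. Mt2 gave r = 0.888 with Slc39a14 and -0.879 with Slc30a1 over 15 libraries, and 0.737 and -0.755 without celecoxib 1. Between the transporters r was -0.744 (rho -0.436), and -0.394 (-0.305) without celecoxib 1, so this relation rested largely on that library. These coefficients describe 6 pairs of genes measured in the same libraries, and no p is given because the genes were picked on these values.

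Over all 11842 genes with a symbol that is not a predicted gene and a mean of at least 1 CPM, the gene most like Mt1 by Pearson's r was Mt2, and the reverse also held. After the partner, Fbxo31 (r = 0.953), Ranbp9 (0.948), Sqstm1 (0.945) and Ube4b (0.942) were most like Mt1, and Stat3 (0.955), Smg1 (0.936), Plekhm2 (0.936) and Rhou (0.927) most like Mt2. Without celecoxib 1 the genes next to Mt1 were Slc24a4 (0.932), Ranbp9 (0.886), Mpp6 (0.883) and Fbxo31 (0.873), and those next to Mt2 were Stat3 (0.887), Slc24a4 (0.884), Atp6v1d (0.862) and Adk (0.858). By Spearman's rho over 15 libraries, Slc24a4 and Lrrc16a stood ahead of Mt2 in likeness to Mt1. The pattern of Slc39a14 was nearest to Arhgef5 (r = 0.984), Phka1 (0.973), Ranbp9 (0.969), Riok3 (0.969) and Atp13a3 (0.966), and without celecoxib 1 to Atp13a3 (0.927), Ddx3x (0.925), Celf1 (0.915), Arhgef5 (0.892) and Klhl10 (0.880). Slc30a1 was nearest to Kdelc2 (0.930), Dpysl3 (0.923), Zc3hav1l (0.921), Muc4 (0.920) and Aff3 (0.918). Its nearest genes without celecoxib 1 were Ccnd2 (0.874), C1qtnf7 (0.873), Magi1 (0.865), Kdelc2 (0.864) and Aff3 (0.856).

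The other metallothioneins of the chr8 cluster did not share the pattern of Mt1 and Mt2. Mt3, known mainly from neurons, stood at 6.03 CPM in celecoxib 4, 4.84 in rofecoxib 5, 2.83 in vehicle 4 and 1.48 in rofecoxib 3, and at 0.919 CPM or less in the other 11 libraries, with 0.441 CPM in celecoxib 1. Those 4 libraries also had the highest sums of the 5 sympathetic neuron markers, at 391.9, 252, 150 and 115 CPM, against 55.0 CPM or less elsewhere and 0.407 CPM in celecoxib 1; their part in the Mt3 values was not tested. In whole tissue, more cells of a type and more RNA per cell cannot be told apart. The fitted Mt3 difference was 0.66 ± 1.25 (SE) on the log2 scale for celecoxib and 0.54 ± 1.25 for rofecoxib. Mt4, known from squamous epithelia, had 0 counts in every library. Mtf1, which encodes the zinc sensor, varied from 23.3 to 32.5 CPM, with 25.3 CPM in celecoxib 1, 27.9 in vehicle 3 and 25.3 in celecoxib 3. Its log2 difference from vehicle was 0.02 ± 0.10 (SE) for celecoxib and 0.08 ± 0.10 for rofecoxib, within the spread between libraries.

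The remaining zinc transporters stayed near their vehicle level. Of 22 further Slc30a and Slc39a genes, 15 passed the low-count filter; Slc30a2, Slc30a3, Slc30a8, Slc30a10, Slc39a4, Slc39a5 and Slc39a12 did not. At an adjusted p under 0.05 DESeq2 called 126 of all 15134 genes for celecoxib. None of the 15 zinc transporters was called in either comparison by DESeq2 or by edgeR's quasi-likelihood test. With celecoxib, 0 were higher and 1 lower at an unadjusted p under 0.05, beside 5.35% and 7.18% of all genes. Without vehicle 3 the counts were 0 and 2 (Slc39a2 and Slc39a3), beside 7.62% and 7.35%. With rofecoxib they were 0 and 0, beside 1.47% and 3.71%. Slc39a2 was named after its values were seen. This importer of low abundance stood at 1.958 ± 0.306 CPM in vehicle and 1.47 ± 0.183 in celecoxib (SD, n = 5 each), with a log2 difference of -0.41 ± 0.15 (SE). Its edgeR quasi-likelihood p was 0.0134 unadjusted and 0.300 after Benjamini-Hochberg adjustment. The median log2 difference of the 15 genes was -0.03 for celecoxib, -0.0091 without celecoxib 1 and -0.02 for rofecoxib.

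Among exporters, the 5 most abundant after Slc30a1 was set aside were Slc30a9, Slc30a5, Slc30a4, Slc30a7 and Slc30a6. Slc30a9, which acts at mitochondria, averaged 91.7 ± 5.69 CPM in vehicle and 89.8 ± 3.72 in celecoxib. Slc30a5, Slc30a6 and Slc30a7 load zinc into the early secretory pathway, and their log2 differences with celecoxib were 0.04 ± 0.04, -0.09 ± 0.06 and -0.03 ± 0.04 (SE). The vesicular exporter Slc30a4 gave 0.05 ± 0.07. Of the importers other than Slc39a14, Slc39a1 at the cell surface was the most abundant, at 156 ± 17.2 CPM in vehicle, 155 ± 13.0 in celecoxib and 154 ± 8.03 in rofecoxib (SD, n = 5 each). Slc39a13, a transporter of the secretory pathway, gave -0.04 ± 0.08, Slc39a9 gave 0.04 ± 0.04 and Slc39a6 gave -0.01 ± 0.09 for celecoxib. Slc39a3 gave -0.15 ± 0.08, and -0.07 ± 0.06 without celecoxib 1. With rofecoxib the 10 differences lay between -0.07 (Slc30a4) and 0.02 (Slc39a6).

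**Figure D4:**
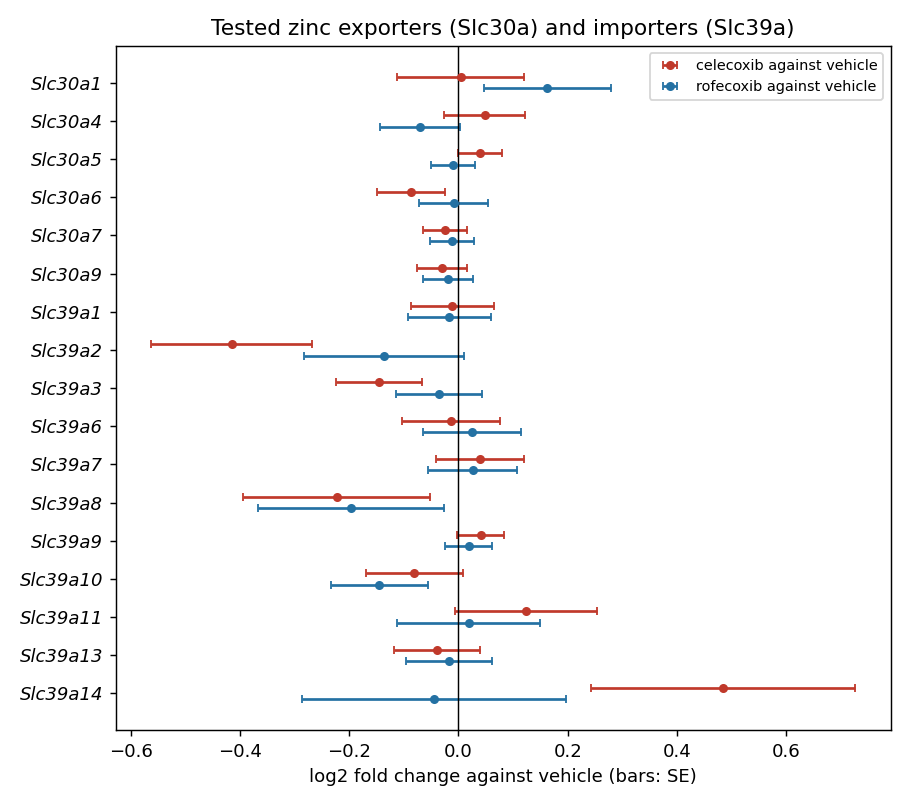
Fitted log2 fold change against vehicle, with bars of 1 SE, of the 17 zinc exporters and importers that passed the low-count filter, for celecoxib and rofecoxib. Slc39a14 (0.48 with celecoxib) lies farthest to the right and Slc39a2 (-0.41 with celecoxib) farthest to the left, and the Slc39a14 value falls to 0.10 without celecoxib 1.

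Genes of copper, iron and thiol metabolism were read beside them, since metallothioneins also bind copper and react with oxidants. At an unadjusted p under 0.05, 0 of 10 tested copper genes were higher and 2 lower with celecoxib (Sco1 and Cox17), 0 and 0 of 11 iron genes, and 1 and 0 of 11 antioxidant genes (Gclc), beside 5.35% and 7.18% of all genes. Without celecoxib 1 the copper genes were Sod1 and Cox17, both lower, no iron gene was counted, and the antioxidant count was 0 higher and 1 lower (G6pdx), beside 4.12% and 5.88%. Without vehicle 3 the shares of all genes were 7.62% higher and 7.35% lower. Beside them the iron count became 1 higher (Ireb2) and 4 lower (Tfrc, Slc40a1, Ftl1 and Aco1). The copper count was then 1 higher (Atp7a) and 1 lower (Cox17), and the antioxidant count 2 higher (Gclc and Gclm) and 0 lower. With rofecoxib the counts were 0 and 0, 0 and 0, and 0 and 1 (Prdx1, a peroxiredoxin, at -0.10 ± 0.04 on the log2 scale), beside 1.47% and 3.71%. No gene of these lists was called at an adjusted p under 0.05 by edgeR. Median log2 differences with celecoxib were -0.07 for copper, -0.12 for iron and 0.0076 for antioxidant genes, and -0.05, -0.12 and 0.0030 without celecoxib 1. The superoxide dismutase Sod1 averaged 150 ± 19.99 CPM in vehicle and 135 ± 15.3 in celecoxib, and the ferritin heavy chain Fth1 1633 ± 62.5 and 1670 ± 84.1 CPM (SD, n = 5 each). With all libraries the log2 differences with celecoxib were -0.22 ± 0.11 (SE) for the ferritin light chain Ftl1 and -0.16 ± 0.07 for the iron-regulated aconitase Aco1. Neither passed the test, and nor did the differences for the copper oxidase Cp (0.02 ± 0.17), the reductase Steap3 (-0.19 ± 0.14), thioredoxin Txn1 (0.04 ± 0.05) and thioredoxin reductase Txnrd1 (-0.05 ± 0.09).

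The 3 libraries highest in metallothionein differed in which other known inducer pathways were high. A list of 18 glucocorticoid-responsive genes, from which Mt1 and Mt2 were left out, averaged 7.83 log2 CPM in celecoxib 1, the highest of all libraries, and 6.98 in celecoxib 3, the second highest. In vehicle 3 it averaged 6.07, and only vehicle 1 (5.84) was lower. The list of 18 interleukin-6 pathway genes, 16 of them tested, averaged 5.91 in celecoxib 1, 5.72 in vehicle 3 and 4.93 in celecoxib 3, above the other 12 libraries, which lay between 4.10 and 4.66. Celecoxib 1 is thus high on both lists and vehicle 3 on the interleukin-6 list. Celecoxib 3 lies above the other 12 libraries on the interleukin-6 list, but close to celecoxib 4 (6.85) on the glucocorticoid list. The part of either pathway in the metallothionein values was not tested.

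**Figure D5:**
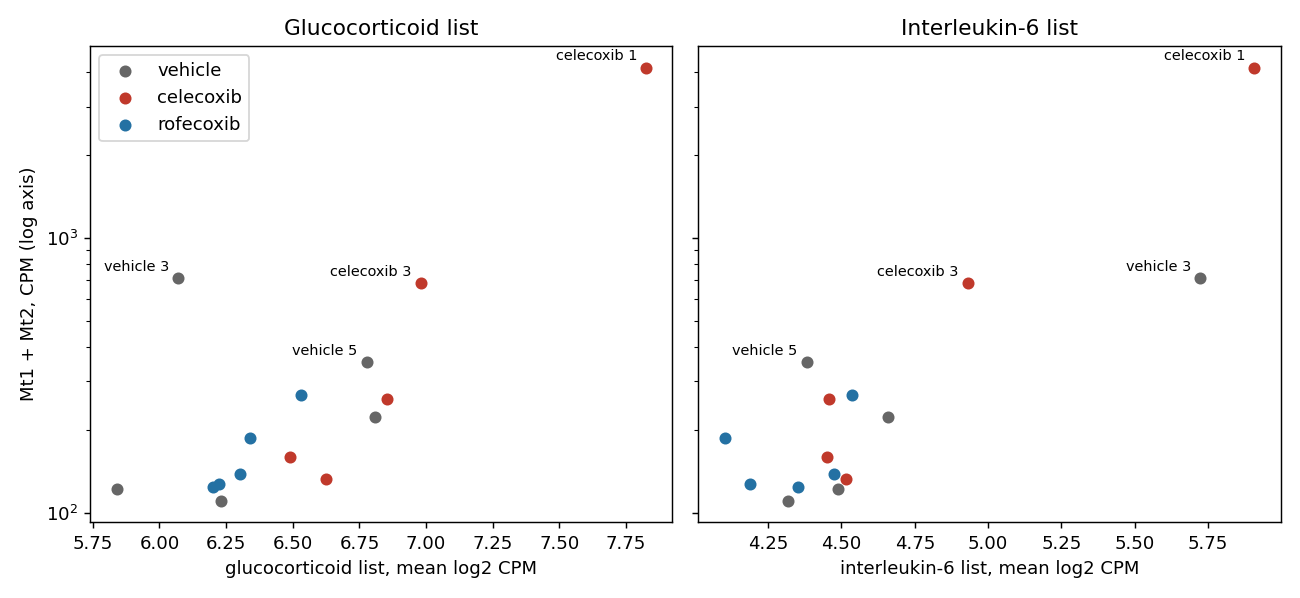
Summed CPM of Mt1 and Mt2 (log axis) against the mean log2 CPM of the glucocorticoid list (left) and the interleukin-6 list (right) in each library, coloured by group. Celecoxib 1 is at the upper right in both panels, and vehicle 3 (712 CPM) is at 6.07 on the left list, near its low end, and at 5.72 on the right list, the second highest.

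Fkbp5 makes the difference between these libraries plain. It stood at 972 CPM in celecoxib 1 and 280 in celecoxib 3, yet at 57.7 CPM in vehicle 3, within the vehicle range of 43.6 to 223 CPM. Per1, a clock gene that glucocorticoids induce, was highest in celecoxib 1 (431 CPM) and lowest of the 15 libraries in vehicle 3 (103 CPM). Tsc22d3, which encodes the glucocorticoid-induced leucine zipper, was likewise highest in celecoxib 1 (200 CPM) and lowest in vehicle 3 (34.2 CPM). The 4 other celecoxib libraries, celecoxib 3 among them, held 214 to 262 CPM of Per1 and 90.6 to 165 CPM of Tsc22d3. The transcription factor Zbtb16 was at 509 CPM in celecoxib 1, 320 in celecoxib 3 and 137 in vehicle 3, and the kinase Sgk1 at 202, 165 and 90.9 CPM. Rofecoxib libraries held up to 174 CPM of Sgk1, above the celecoxib 3 value. Genes of the interleukin-6 pathway gave another order. Socs3, the feedback inhibitor of the pathway, was at 43.3 CPM in celecoxib 1 and 41.6 in vehicle 3, 14.5 in celecoxib 3, and 6.38 to 11.1 CPM in the other 12 libraries. Stat3, its transcription factor, was at 405, 285 and 224 CPM in those 3 libraries and between 162 and 197 CPM elsewhere. The receptor subunit Osmr was at 154, 122 and 65.2 CPM, the iron-siderophore carrier Lcn2 at 9.97, 10.2 and 4.07 CPM, and Cebpd, a transcription factor on both lists, at 70.2, 27.4 and 43.7 CPM, in celecoxib 1, vehicle 3 and celecoxib 3.

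Against vehicle, all 18 glucocorticoid genes had a positive log2 difference with celecoxib, with a median of 0.67, and 10 of 18 were higher at an unadjusted p under 0.05, beside 5.35% of all genes. Without celecoxib 1 the median was 0.38, with 16 positive and 4 of 18 (Per1, Hif3a, Sesn1 and Adamts1) at an unadjusted p under 0.05, beside 4.12% of all genes higher and 5.88% lower. Without vehicle 3 the median was 0.56 with 7 higher genes, beside 7.62% of all genes. Without both libraries it was 0.33 with 4 higher and 1 lower, beside 5.57% and 6.94%. Celecoxib 1 had the highest mean of this list (7.83) and vehicle 3 a low one (6.07). A fall in the celecoxib median without either was therefore built into that choice. No gene of the list passed an adjusted p of 0.05 in edgeR's quasi-likelihood test. DESeq2 called 4 of the 18 with celecoxib (the same Per1, Hif3a, Sesn1 and Adamts1), beside 126 of all 15134 genes. With rofecoxib the median was -0.03, and 1 gene, Sesn1, was higher at an unadjusted p under 0.05, beside 1.47%. For Fkbp5 the celecoxib difference was 1.58 ± 0.63 on the log2 scale (SE, edgeR adjusted p = 0.336), and 0.66 ± 0.49 without celecoxib 1. Per1 differed by 0.69 ± 0.20 (edgeR adjusted p = 0.275), and by 0.48 ± 0.16 without celecoxib 1.

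The interleukin-6 list had a median log2 difference of 0.18 with celecoxib, with 2 of 16 tested genes (Lifr and Cebpd) higher and 0 lower at an unadjusted p under 0.05, beside 5.35% and 7.18% of all genes. Without celecoxib 1 the median was -0.14, with 1 gene higher (Lifr) and 2 lower (Hp and Bcl3), beside 4.12% and 5.88%. Without vehicle 3 it was 0.43, with 6 higher and 0 lower, beside 7.62% and 7.35%, and without both libraries 0.21, with 3 higher and 0 lower, beside 5.57% and 6.94%. The rofecoxib median was -0.35, with 0 higher and 2 lower (Lcn2 and Bcl3), beside 1.47% and 3.71%. It was 0.01 without vehicle 3, with 0 higher and 0 lower, beside 2.34% and 3.71%. Vehicle 3 had the highest mean of this list among vehicle libraries, so a rise in both medians without it was built into that choice. Celecoxib 1 had the highest mean of all libraries (5.91), so the fall of the celecoxib median without it was built in too. No gene of the list was called at an adjusted p under 0.05 by edgeR. DESeq2 called 1 of the 16, Lifr, with celecoxib, beside 126 of all 15134 genes. Both lists were chosen with earlier results of these libraries known, so their direction is no independent evidence.

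By the summed markers of fat, macrophages and endothelium, celecoxib 1 lay inside the range of the other libraries. Its sum was 878 CPM for adipocyte markers (411 to 2059 over all libraries) and 360 CPM for brown adipocyte markers (67.7 to 1548). Between groups, the brown adipocyte sum was 367 to 1548 CPM in vehicle, 67.7 to 501 in celecoxib and 182 to 440 in rofecoxib, and the adipocyte sum 888 to 2059, 411 to 1205 and 711 to 1551 CPM. None of these 10 markers was at 0 in all libraries. With the adipocyte marker mean as a covariate the celecoxib differences were 1.72 for Mt1 and 2.03 for Mt2, the glucocorticoid list median was 0.83 and the interleukin-6 list median 0.10; the part of the brown adipocyte markers was not tested. Macrophage markers summed to 95.7 CPM in celecoxib 1 (57.3 to 157) and endothelial markers to 698 CPM (436 to 855). Hepatocyte markers, of a cell type rich in metallothionein, summed to 1.04 CPM or less in every library and to 0.610 CPM in celecoxib 1. Blood markers were highest in vehicle 3 at 300 CPM, and stood at 79.7 CPM in celecoxib 1 and 57.6 in celecoxib 3; their part in the vehicle 3 values was not tested.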

How the data were processed

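RNA of mouse thoracic aorta was measured in 15 libraries, 5 per group. The values the authors deposited are whole-number counts per gene on mm9 coordinates, and CASAVA 1.8.2 and STAR 2.5.2a were used, per the submitters' processing notes. The counter, its strand setting and the annotation were not given in the sources used here. Columns matched titles, with 0 left without a sample. One edgeR 4.0.16 quasi-likelihood fit (filterByExpr, TMM, robust, R 4.3.3) covered all libraries, with Benjamini-Hochberg adjustment over 15134 genes, a threshold of 0.05 and a common biological coefficient of variation of 0.228. Log2 CPM used a prior count of 2. Alternatives used DESeq2 1.42.0, limma 3.58.1 (voom), other scalings, no filter, an adipocyte covariate, a replicate block, 2-group fits and leaving out each library. Fits were tested on simulated data. Figures used matplotlib 3.10.9.

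The members and lists were chosen with earlier results of these data known. The named genes were the 4 members, Mt3, Mt4 and Mtf1, the 5 most abundant other exporters and importers, the 3 most abundant copper, iron and antioxidant genes, 5 set genes each of the glucocorticoid and interleukin-6 lists, any called gene, and the 5 genes most like each member. Other genes named were chosen after their values were seen. Libraries were built over several days, and the day of each is not in the labels, so no batch term was fitted. No replicate pair agreed within sampling noise (smallest chi-square per gene 13.0 over 14961 genes).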

Additional observations from a re-analysis of the deposited data

Results flagged for a closer look

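Of 117 groups of 5 libraries examined for the 4 genes, the named genes and the lists, 21 held a library whose gap to the next value was above Dixon's 95% critical value of 0.71 as a share of the group's range. Chance flags about 1 in 20 groups. The genes and lists were chosen with values of these libraries known, so the number is a description and is not set against that rate.

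Celecoxib 1 stood above its group for Mt1 (2270 CPM, next library 427), Mt2 (1891, next 258), Slc39a14 (364, next 171), Fkbp5 (972, next 280), Per1 (431, next 262), Socs3 (43.3, next 14.5), Stat3 (405, next 224), Lcn2 (9.97, next 4.07) and Osmr (154, next 65.2 CPM). Vehicle 3 stood above its group for Mt2 (304 CPM, next 101), Socs3 (41.6, next 8.29), Stat3 (285, next 195), Lcn2 (10.2, next 2.86), Osmr (122, next 54.1 CPM) and the interleukin-6 list mean (5.72 log2 CPM, next 4.66). It stood below its group for Aco1 (84.9 CPM, next 101).

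The other libraries apart from their group were celecoxib 4 for Mt3 (6.03 CPM, next 0.612), vehicle 5 for Slc39a9 (68.1, next 62.5), rofecoxib 1 for Ftl1 (318, next 276) and, on the low side, rofecoxib 5 for Prdx1 (226, next 237 CPM). Celecoxib 5 was apart for the mean of the zinc transporter list (4.81 log2 CPM, next 4.73).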

How the results depend on the processing

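Of 528 values over 22 results, 518 stayed within the spread between libraries or, for counts of genes, within 1.5 times, and 10 did not. Of all values, 24 changed sign, mostly differences near 0. For Mt1 and Mt2 that spread was an SD of 1.23 and 1.64 log2 units, celecoxib 1 included. Large shifts of their differences therefore still counted as within it. The counts of genes were 0 in the main fit, so only another 0 counted as unchanged. Leaving out 1 library moved the celecoxib difference of Mt1 between 0.094 (without celecoxib 1) and 2.14 (without vehicle 3), that of Mt2 between -0.081 and 3.01 for the same libraries, and the count of genes called for celecoxib between 0 and 8 (8 without celecoxib 4, 2 without vehicle 2 and 1 without celecoxib 5). DESeq2 called 126 genes for celecoxib where edgeR called 0, with 4 of the glucocorticoid and 1 of the interleukin-6 list; the cause was not tested. The zinc list median for celecoxib turned from -0.025 to 0.027 with no low-count filter, where more genes enter, and to 0.0071 without celecoxib 1 and vehicle 3, an alternative chosen after seeing the data. Libraries of the same replicate number were not regularly the most alike. Correlations of same-numbered deviations ran from -0.0778 to 0.775 for celecoxib and -0.702 to 0.412 for rofecoxib. In each comparison 1 of 5 pairs correlated best with its own number. Such correlations cannot show whether same-numbered mice were handled together. The fit with the replicate block called 0 genes in either comparison and gave 0.91 for Mt1 and 0.90 for Mt2 with celecoxib, beside 0.86 and 0.88 by limma-voom. Precision is limited by 5 libraries per group and by unknown original depth.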
